A study of Homo sapiens with 16 samples.

Results

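Integrator is a multi-subunit complex that binds RNA polymerase II. The genes described here are those of 10 of its subunits: INTS1, INTS2, INTS3, INTS4, INTS5, INTS6, INTS7, INTS8, INTS12 and ASUN, the older symbol of INTS13. They were chosen by symbol from the 25270 genes of the expression matrix, and all 10 were among the 10600 genes tested, which had a mean of at least 1 FPKM over all libraries. FPKM counts fragments per kilobase of transcript and per set number of mapped fragments.

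The cells were U2OS, an established human osteosarcoma line, and RNA was sequenced after 6 h of treatment. T4 and T5 are small molecules labelled as APA modulators, where APA is the usual short form of alternative polyadenylation, the use of different cleavage sites near a gene's 3′ end. CPT is given only as an abbreviation, which is commonly used for camptothecin, an inhibitor of DNA topoisomerase I. The groups were U2OS cells with DMSO, the solvent control, and U2OS cells with CPT, T4 or T5 at 0.5, 2, 5, 10 or 20 µM. Each of these 16 conditions had 1 library, so every error below is scatter around a fitted dose line or between doses, not between replicate cultures. The 3 dose trends share the DMSO library.

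Integrator's catalytic subunit is an RNA endonuclease that cuts nascent transcripts, and the complex was first known for forming the 3′ ends of the small nuclear RNAs of the spliceosome. A second catalytic part recruits the phosphatase PP2A to RNA polymerase II and counters the phosphorylation that releases a paused polymerase into elongation. Together these activities end transcription early at many protein-coding genes. Modules named below (backbone, phosphatase, cleavage and arm) follow this textbook picture of the complex.

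The sum of FPKM per library lay between 238669 and 285143. Relative to DMSO, the sequencing depth estimated from the lowest non-zero values was between 0.639 (T5 at 5 µM) and 0.997 (T5 at 0.5 µM). The median log2(FPKM + 1) of tested genes was lower than in DMSO in every treated library, by 0.05 (T4 at 0.5 µM) to 0.63 (T5 at 20 µM), and changes below are stated on the deposited scale unless centring is named. Of 9 bone and mesenchymal markers, 5 reached 1 FPKM in DMSO (COL1A1, SPARC, VIM, RUNX2 and ALPL), and their list summed to 891 FPKM in DMSO and to at most 1535 in a treated library. COL1A2, SP7, IBSP and BGLAP stayed under 1 FPKM in DMSO. Epithelial markers summed to between 5.08 and 18.7 FPKM, with 2 of 6 (EPCAM and CLDN4) at 1 FPKM or more in DMSO. Blood cell markers summed to at most 1.89 FPKM, none of 6 reached 1 FPKM in DMSO, and HBB was among those at 0 in all libraries. These are bulk values, in which fewer expressing cells and less of a gene's RNA per cell cannot be told apart. FPKM is relative to the mapped fragments of a library, so absolute amounts of RNA are not known. A rise or fall below is relative to the other RNAs of that library.

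In the DMSO library the subunits spanned from 37.9 FPKM for INTS1 down to 3.25 FPKM for INTS6. ASUN was second at 18.4, followed by INTS4 at 13.2, INTS7 at 12.7, INTS12 at 9.62, INTS8 at 9.37, INTS2 at 8.56, INTS3 at 7.19 and INTS5 at 6.74 FPKM. With 1 DMSO library no spread is known, so the order of neighbours in this list is untested. INTS1 was above 87.1% of tested genes or level with them, and INTS6 above 20.2%.

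INTS3 did not pass the trend test with any compound but was below DMSO in every treated library. Promoter windows are shown for INTS3 and for INTS1, which rose with every compound. Of the 8 members with a RefSeq promoter (GRCh38.p14), these were the ones whose 100 bases before the start overlap no annotated exon. Capitals mark the letters of a searched motif on either strand: CCAAT, the ETS-family motif CCGGAAG and the GC box GGGCGG.
INTS1, chr7:1504390-1504489, minus strand: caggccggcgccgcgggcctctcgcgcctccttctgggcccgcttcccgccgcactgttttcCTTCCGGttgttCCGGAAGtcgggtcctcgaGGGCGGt
INTS3, chr1:153727950-153728049, plus strand: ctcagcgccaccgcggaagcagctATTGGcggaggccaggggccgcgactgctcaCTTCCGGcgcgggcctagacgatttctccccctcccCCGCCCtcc
Both windows hold the ETS letters, which occur in 5.61% of 35116 promoter windows of this length, and the GC box, which occurs in 31.3%. The INTS3 window also holds CCAAT, which occurs in 18.1%. The cAMP response element TGACGTCA (in 1.17% of the windows), its shorter form TGACG (11.7%), the E box CACGTG (3.43%), the NRF1 motif (0.712%) and the TATA box TATAAA (4.99%) were also searched on both strands, and these letters were in neither window. The motifs are letter matches and were not tested as sites.

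The genes differ widely in length. In the GENCODE 29 annotation of GRCh38, used by symbol since the matrix holds no coordinates, INTS5 (chr11:62646848-62653302, minus strand) has a principal transcript that spans 6.5 kb with 2 exons. INTS12 (chr4:105682627-105895986, minus strand) has a principal transcript of 26.5 kb with 7 exons, and ASUN (chr12:26905181-26938326, minus strand) one of 33.1 kb with 17 exons. INTS1 (chr7:1470277-1504367, minus strand) spans 34.1 kb with 48 exons and INTS3 (chr1:153728067-153774808, plus strand) 46.7 kb with 30 exons. INTS2 (chr17:61865367-61928016, minus strand) spans 62.6 kb with 25 exons, and INTS8, on the plus strand of chromosome 8, 58.4 kb with 27 exons. The longest are INTS6 (chr13:51354077-51454264, minus strand) at 87.8 kb with 18 exons, INTS7 (chr1:211940399-212035542, minus strand) at 95.1 kb with 20 exons and INTS4 (chr11:77878720-77994678, minus strand) at 116.0 kb with 23 exons. Exons of INTS8 share 1629 bases with CCNE2 on the opposite strand, and those of INTS12 share 331 bases with GSTCD. On the same strand, exons of INTS3 share 455 bases with SLC27A3 (1.33 FPKM in DMSO) and those of INTS5 share 306 bases with AP001458.2, which has no value in the matrix under that name. Smaller overlaps on the opposite strand included 37 bases of INTS4 with AAMDC and 39 bases of INTS6 with INTS6-AS1. Strand handling is not given in the sources used here, so reads from the opposite-strand overlaps cannot be assigned. Reads from the same-strand overlaps could not be told apart by strand in any case. The values of INTS3, INTS4, INTS5, INTS6, INTS8 and INTS12 are uncertain to that extent.

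INTS5 was the subunit on which CPT differed most from T4 and T5: its RNA rose with CPT and fell with T4 and T5. INTS5 belongs to the phosphatase module, which docks PP2A onto the complex. In DMSO it stood at 6.74 FPKM. With CPT it read 9.93, 16.1, 18.1, 17.9 and 17.8 FPKM at 0.5, 2, 5, 10 and 20 µM. All 5 CPT libraries were above DMSO, and the values levelled off from 5 µM. With T4 it read 4.27, 2.70, 1.97, 0.941 and 0.441 FPKM in the same order of doses. With T5 it read 3.39, 3.02, 2.09, 1.20 and 0.429 FPKM. Every T4 and T5 library was below DMSO and below every CPT library, each step in dose was lower than the one before, and the 20 µM libraries kept 6.54% (T4) and 6.37% (T5) of the DMSO level.

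The dose trend, fitted by limma on log2(FPKM + 1) and stated as the change from 0 to 20 µM ± SE, was 1.28 ± 0.28 for INTS5 with CPT (Benjamini-Hochberg adjusted p = 0.0163). It was -2.35 ± 0.17 with T4 (limma adjusted p = 0.00121) and -2.16 ± 0.25 with T5 (limma adjusted p = 0.00158). This scale understates changes of low values, such as those near 0.4 FPKM. Relative to INTS1, INTS5 went from 17.8% of the INTS1 FPKM in DMSO to 0.763% with T4 and 0.624% with T5 at 20 µM. The CPT rise of INTS5 was no longer called without the 0.5 µM library (1.28, limma adjusted p = 0.050), without the 10 µM library (1.30, limma adjusted p = 0.0599) or without DMSO (0.89, limma adjusted p = 0.0571). The value without DMSO is also scaled from 0 to 20 µM, although its lowest dose was 0.5 µM.

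INTS6, a partner of INTS5 in the phosphatase module, had 3.25 FPKM in DMSO. With CPT it read 3.67, 3.59, 2.16, 1.78 and 1.60 FPKM from the lowest to the highest dose. With T4 the values were 2.44, 2.81, 3.44, 2.64 and 2.24, and with T5 2.34, 4.74, 5.34, 5.16 and 3.19 FPKM. The CPT series crossed below DMSO from 5 µM on, while the T5 series was above DMSO at 2, 5 and 10 µM only. INTS6 fell with CPT, by 0.88 ± 0.24 on the log2 scale (limma adjusted p = 0.0274), a call lost with median centring (-0.43, limma adjusted p = 0.195). The trends with T4 (-0.19 ± 0.23) and T5 (0.42 ± 0.39, limma adjusted p = 0.387) did not pass, and a straight dose line describes the hump-shaped T5 values poorly. The INTS6 antisense gene INTS6-AS1 stayed between 0.0616 and 0.525 FPKM.

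INTS8, the scaffold of the phosphatase module, had 9.37 FPKM in DMSO and was lower in every treated library. With CPT it read 2.92, 3.88, 5.00, 5.85 and 5.41 FPKM, with T4 5.71, 4.73, 5.95, 7.55 and 8.24, and with T5 4.81, 5.03, 6.54, 7.46 and 8.28. The lowest dose or the one above it was the lowest point in each series, and the level at 20 µM was 1.85, 1.74 and 1.72 times that point. At 20 µM the log2 ratio of INTS8 to DMSO was -0.69 with CPT, -0.17 with T4 and -0.16 with T5. The median tested gene was at -0.15, -0.24 and -0.29 in these libraries. Fitted from DMSO on, the INTS8 trends were -0.10 ± 0.52 (CPT), 0.05 ± 0.36 (T4) and 0.15 ± 0.37 (T5), and none passed. Among treated libraries only, INTS8 rose with CPT (0.97, limma adjusted p = 0.0292) and with T5 (0.91, limma adjusted p = 0.00766). These 2 values are scaled from 0 to 20 µM, beyond the fitted doses. From 0.5 to 20 µM the log2 ratio to DMSO went from -1.40 to -0.69 with CPT and from -0.84 to -0.16 with T5. CCNE2, a cyclin gene that overlaps INTS8, had another course: 13.5 FPKM in DMSO, 31.2 and 5.04 at 0.5 and 20 µM CPT, 17.1 and 3.94 with T4, and 18.0 and 3.46 with T5.

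INTS2 links the backbone and the phosphatase module. It had 8.56 FPKM in DMSO and was lower in all 15 treated libraries. The CPT libraries read 4.44, 2.09, 2.22, 2.35 and 2.52 FPKM, the T4 libraries 5.98, 3.00, 2.53, 2.90 and 4.11, and the T5 libraries 4.49, 2.61, 1.90, 2.0 and 2.46. Most of the difference from DMSO was present at 2 µM. INTS2 fell with CPT (-1.34 ± 0.44, limma adjusted p = 0.0482) and T5 (-1.48 ± 0.40, limma adjusted p = 0.0216). With T4 the value was -1.07 ± 0.43 (limma adjusted p = 0.0826), and -1.73 without the 20 µM library (limma adjusted p = 0.0177). Both calls were lost with median centring (-0.89 and -0.81, limma adjusted p = 0.0923 and 0.0614) and in the trends of treated libraries only (-0.62 and -0.85).

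**Figure D1:**
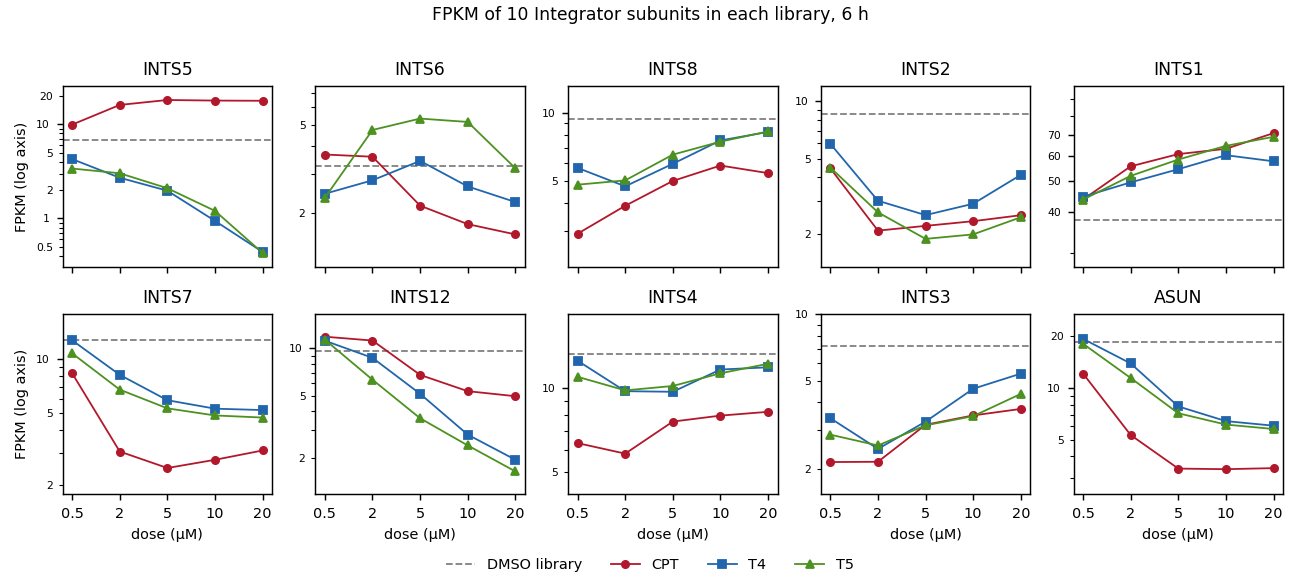
FPKM (log axis) of each of the 10 subunits against dose in µM (categories), with 1 point per library, 1 colour and marker per compound, and the DMSO library as a dashed line. INTS5 lies above DMSO at every CPT dose and below it at every T4 and T5 dose, while INTS3, INTS4 and INTS8 have their lowest points between 0.5 and 5 µM.

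In the backbone, INTS1 rose with all 3 compounds, and INTS7 and INTS12 fell with all 3. INTS1, the largest scaffold protein of the complex, had 37.9 FPKM in DMSO. CPT libraries read 43.9, 55.7, 60.8, 63.2 and 70.7 FPKM. T4 libraries read 44.8, 49.7, 54.6, 60.4 and 57.8, and T5 libraries 43.9, 52.0, 58.5, 64.5 and 68.9. All 15 were above DMSO. The INTS1 trends were 0.86 ± 0.11 with CPT (limma adjusted p = 0.0105), 0.62 ± 0.11 with T4 (limma adjusted p = 0.00564) and 0.85 ± 0.08 with T5 (limma adjusted p = 0.00117).

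INTS7, which pairs with INTS2 in the backbone, had 12.7 FPKM in DMSO. It read 8.32, 3.05, 2.47, 2.75 and 3.10 FPKM with CPT, 12.7, 8.15, 5.89, 5.29 and 5.19 with T4, and 10.7, 6.75, 5.31, 4.85 and 4.72 with T5. The CPT libraries were the lowest at every dose, and the 0.5 µM T4 library was level with DMSO. INTS7 fell by 1.87 ± 0.47 with CPT (limma adjusted p = 0.0233), by 1.36 ± 0.21 with T4 (limma adjusted p = 0.00364) and by 1.37 ± 0.21 with T5 (limma adjusted p = 0.00301).

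INTS12, a small subunit with a PHD finger, had 9.62 FPKM in DMSO. The CPT values were 11.9, 11.2, 6.78, 5.33 and 4.96 FPKM. The T4 values were 11.2, 8.70, 5.13, 2.82 and 1.95, and the T5 values 11.4, 6.31, 3.58, 2.41 and 1.64. All 3 libraries at 0.5 µM were above DMSO, and all 9 at 5 µM or more were below it. INTS12 fell with CPT (-1.10 ± 0.29, limma adjusted p = 0.0261), with T4 (-2.08 ± 0.34, limma adjusted p = 0.00414) and with T5 (-2.30 ± 0.28, limma adjusted p = 0.00175). The CPT call was lost with median centring (-0.65, limma adjusted p = 0.106).

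INTS4 and INTS3 did not pass the trend test with any compound. INTS4 is the scaffold of the cleavage module, which holds the endonuclease. It had 13.2 FPKM in DMSO, 6.33, 5.80, 7.57, 7.95 and 8.20 with CPT, 12.5, 9.73, 9.68, 11.6 and 11.9 with T4, and 11.0, 9.79, 10.2, 11.3 and 12.2 with T5. All 15 treated values were below DMSO and all CPT values below all T4 and T5 values, with trends of -0.28 ± 0.40, -0.16 ± 0.21 and -0.06 ± 0.19. A copy of the gene, INTS4L2, stayed at or under 0.0438 FPKM. INTS3, which Integrator shares with the SOSS complex of single-stranded DNA binding, had 7.19 FPKM in DMSO. It read 2.14, 2.15, 3.16, 3.49 and 3.73 with CPT, 3.39, 2.46, 3.27, 4.60 and 5.39 with T4, and 2.85, 2.55, 3.14, 3.46 and 4.36 with T5. All 15 values were below DMSO, and each series was higher at 20 than at 0.5 µM. Its trends were -0.30 ± 0.54, -0.10 ± 0.49 and -0.33 ± 0.47. With median centring the INTS3 and INTS4 trends turned positive with every compound, and INTS4 then passed with T5 (0.61, limma adjusted p = 0.0115).

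ASUN, of the arm module, had 18.4 FPKM in DMSO. It read 12.1, 5.33, 3.40, 3.37 and 3.42 with CPT, 19.3, 13.9, 7.82, 6.42 and 6.04 with T4, and 18.1, 11.4, 7.13, 6.13 and 5.78 with T5. CPT libraries were the lowest at each dose and were level from 5 µM on. ASUN fell with CPT (-2.29 ± 0.38, limma adjusted p = 0.0108), with T4 (-1.76 ± 0.24, limma adjusted p = 0.00236) and with T5 (-1.77 ± 0.21, limma adjusted p = 0.00164).

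**Figure D2:**
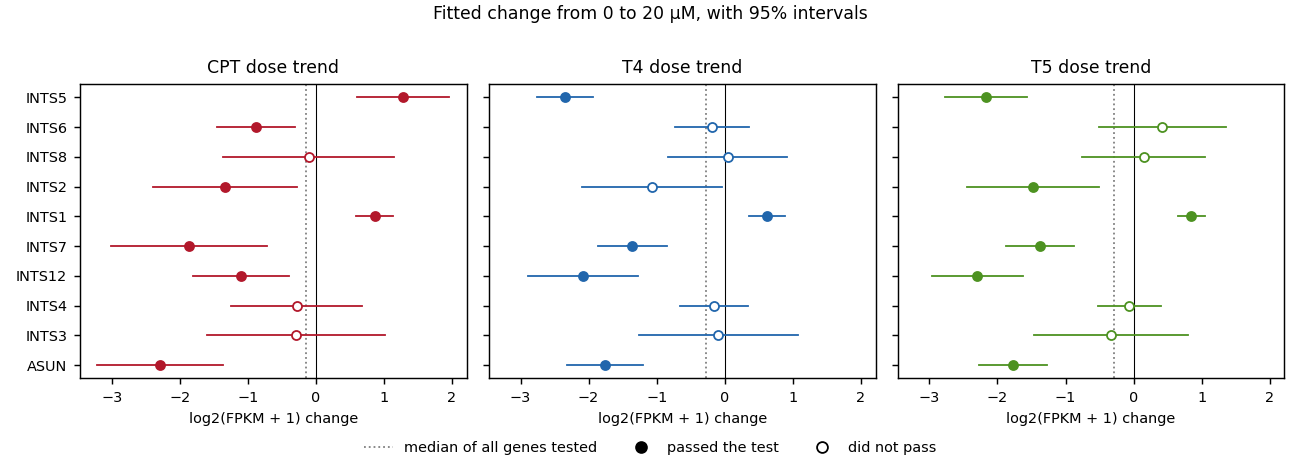
Fitted change from 0 to 20 µM on the log2(FPKM + 1) scale for each subunit and compound (points, with 95% confidence intervals as bars), with filled points where the limma adjusted p is under 0.05, open points elsewhere, and the median of all tested genes as a dotted line. INTS5 is at 1.28 with CPT and at -2.35 and -2.16 with T4 and T5.

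With CPT, 5 of the 10 subunits fell and 2 rose, where 25.8% of the 10600 tested genes fell and 17.9% rose. With T4, 4 fell and 1 rose, against 32.4% and 14.5% of tested genes, and with T5, 5 fell and 1 rose, against 34.5% and 18.2%. The median subunit trends were -0.59 (CPT), -0.63 (T4) and -0.85 (T5), beside medians of all tested genes of -0.14, -0.27 and -0.29. With 10 genes, these shares differ from the background by few members. The number of CPT calls depended on single libraries. Without the 10 µM library no subunit passed, and over all tested genes limma called 1 rising and 0 falling. Without the 0.5 µM library 1 fell and 1 rose, without 5 µM 2 fell, and without 20 µM 3 fell. Of all tested genes, 1535 fell and 1005 rose without 0.5 µM, 1930 and 1121 without 5 µM, and 2400 and 1621 without 20 µM. The fitted changes themselves stayed near the reported ones without the 10 µM library, at -2.28 for ASUN, -1.88 for INTS7, -1.37 for INTS2, -1.01 for INTS12, -0.83 for INTS6, 0.89 for INTS1 and 1.30 for INTS5, with limma adjusted p-values from 0.0537 to 0.110. With dose on a linear scale, no subunit passed with CPT, INTS5 and INTS12 fell with T4, and INTS5 fell with T5. On that scale limma called 0 of the 10600 tested genes falling and 0 rising with CPT. It called 1328 falling and 99 rising with T4, and 545 and 23 with T5. With median centring the split of falling and rising subunits was 2 and 2 with CPT and 4 and 2 with T5. Centring also turned the split of all tested genes, to 3572 rising and 1643 falling with CPT, 4293 and 1847 with T4, and 4388 and 1992 with T5. It removes the difference of library medians, which at 20 µM was -0.40 (CPT), -0.57 (T4) and -0.63 (T5) relative to DMSO. The median log2 ratio of the tested genes was smaller in size, at -0.15, -0.24 and -0.29. Centred values are thus shifted upwards by more than the median gene changed.

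In single libraries against DMSO, without an error estimate, a subunit was counted when it differed at least 2-fold on the log2(FPKM + 1) scale. The share of all tested genes is given after each count. With 0.5 µM CPT 2 subunits were lower (6.81%) and 0 higher (2.45%), and with 2 µM CPT 6 were lower (17.6%) and 1 higher (5.74%). At 5, 10 and 20 µM CPT the counts were 3 lower each time (21.0%, 21.3% and 21.0%) and 1 higher (5.58%, 5.43% and 6.12%). The subunit that was higher was INTS5 in each of these 4 libraries. With T4, 0 subunits were lower at 0.5 µM (1.03%), 3 at 2 µM (9.75%), 3 at 5 µM (17.3%), 5 at 10 µM (21.6%) and 4 at 20 µM (22.9%). None was higher at any T4 dose (0.368%, 2.25%, 2.12%, 1.64% and 1.20%). With T5, 1 was lower at 0.5 µM (4.41%), 2 at 2 µM (15.8%), 5 at 5 µM (23.8%), 5 at 10 µM (26.1%) and 5 at 20 µM (26.5%). None was higher at any T5 dose (1.21%, 2.90%, 3.07%, 3.29% and 2.44%). With median centring the lower counts from 0.5 to 20 µM became 0, 0, 0, 1 and 2 with T4 and 0, 0, 1, 3 and 2 with T5. The higher counts then became 0, 0, 1, 1 and 1 with T4, 0, 0, 2, 2 and 1 with T5, and 2 at each of 5, 10 and 20 µM CPT. The other CPT counts stayed within 1.5 times of the uncentred ones. The lower count at 2 µM CPT held INTS4 (-1.06) and INTS8 (-1.09), both near the limit, in a library whose median was 0.26 below DMSO. The shares above are for uncentred values, and centred shares of all tested genes were not counted.

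CPT, T4 and T5 shared their 5 doses, so the compounds were compared at matched doses with dose as a block and without DMSO. The 3 pairs of compounds were each adjusted over all tested genes. T4 and T5 are code names, and their structures are not described here.

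Between T4 and CPT, INTS5 and INTS12 were lower and 6 subunits were higher with T4, where 36.9% of tested genes were lower and 28.3% higher. INTS5 differed by -2.59 ± 0.36 (limma adjusted p = 0.00129) and was lower at all 5 doses, at percentile 0.151 of tested genes. INTS12 was lower by -0.50 ± 0.15 (limma adjusted p = 0.0213), also at all 5 doses, a call lost without the 10 µM dose (-0.44, limma adjusted p = 0.0735). ASUN was higher by 0.86 ± 0.11 (limma adjusted p = 0.000981) and INTS7 by 0.81 ± 0.12 (limma adjusted p = 0.00133). The other subunits that were higher were INTS4 by 0.57 ± 0.10, INTS8 by 0.41 ± 0.11, INTS2 by 0.32 ± 0.09 and INTS3 by 0.28 ± 0.10, each at 5 of 5 doses. INTS3 lost its call without the 0.5, 2, 10 or 20 µM dose, with differences from 0.23 to 0.34 over the fits that left out a dose. INTS1 (-0.13, 95% interval -0.26 to 0.01) and INTS6 (0.10, -0.29 to 0.48) did not pass.

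Between T5 and CPT, INTS5 and INTS12 were again lower and 4 subunits higher, where 37.6% of tested genes were lower and 25.0% higher. INTS5 differed by -2.57 ± 0.33 (limma adjusted p = 0.00087) and INTS12 by -0.73 ± 0.16 (limma adjusted p = 0.00689). ASUN (0.74 ± 0.09), INTS7 (0.65 ± 0.11), INTS4 (0.55 ± 0.07) and INTS8 (0.41 ± 0.08) were higher at 5 of 5 doses. INTS6 was 0.54 ± 0.24 higher and did not pass (limma adjusted p = 0.0869). INTS1 (-0.03, 95% interval -0.13 to 0.06), INTS2 (-0.02, -0.22 to 0.18) and INTS3 (0.13, -0.06 to 0.31) also did not pass. With median centring 7 subunits were higher and 2 lower, where 3986 of the 10600 tested genes were higher and 2521 lower.

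T5 and T4 lay closer together. INTS2 was lower with T5 by -0.34 ± 0.06 (limma adjusted p = 0.00951) and INTS7 by -0.16 ± 0.04 (limma adjusted p = 0.0263), both at 5 of 5 doses, where 26.5% of tested genes were lower. INTS6 was higher by 0.44 ± 0.11 (limma adjusted p = 0.0234) at 4 of 5 doses, where 6.05% of tested genes were higher. The INTS6 call was lost without the 2, 5, 10 or 20 µM dose, and the INTS7 call in each of the 5 fits that left out a dose. The differences in those fits stayed between 0.36 and 0.56 for INTS6 and between -0.18 and -0.14 for INTS7. The INTS5 difference was 0.02, with a 95% interval from -0.15 to 0.18, that of INTS4 was -0.02 (-0.13 to 0.09) and that of INTS8 -0.01 (-0.14 to 0.13).

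**Figure D3:**
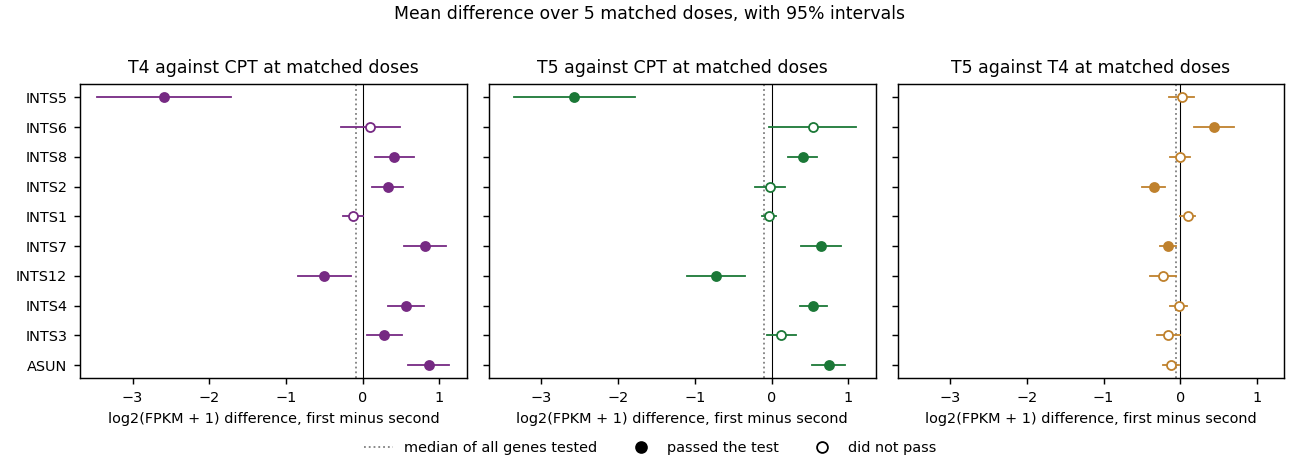
Mean difference between compounds over the 5 matched doses on the log2(FPKM + 1) scale, by subunit (points, with 95% confidence intervals as bars; filled where the limma adjusted p is under 0.05; dotted line, median of all tested genes). INTS5 is at -2.59 for T4 minus CPT, -2.57 for T5 minus CPT and 0.02 for T5 minus T4.

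The effect of dose itself, compared between compounds from 0.5 to 20 µM, differed for INTS5 between each of T4 and T5 and CPT, and for INTS12 between T5 and CPT. For INTS5 the slope with T4 minus that with CPT was -2.60 ± 0.31 (limma adjusted p = 0.00338), where 6.61% of tested genes had a lower slope and 1.16% a higher one. With T5 minus CPT the INTS5 difference was -2.35 ± 0.37 (limma adjusted p = 0.00841) and the INTS12 difference -0.98 ± 0.25 (limma adjusted p = 0.0455), where 6.19% were lower and 2.54% higher. Without the 10 µM dose, none of these passed: INTS5 gave -2.57 (limma adjusted p = 0.0620) and -2.38 (0.0841), and INTS12 -1.02 (0.183). Of the 10600 tested genes, limma then called 0 in either direction between T4 and CPT. Between T5 and CPT it called 22 with a lower slope and 0 with a higher one. The INTS12 call was lost in every fit that left out a dose, with differences from -1.10 to -0.61. Between T4 and CPT the INTS12 slope difference was -0.90 ± 0.30 and did not pass (limma adjusted p = 0.109). INTS6 had slope differences of 0.90 ± 0.31 (T4, limma adjusted p = 0.115) and 1.34 ± 0.51 (T5, limma adjusted p = 0.146). Between T5 and T4, limma called 0 of the 10 subunits and 0.00% of tested genes in either direction. At an unadjusted p under 0.05 there were 419 such genes, 0 of them subunits.

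Of 15 other Integrator subunits and partners, 14 were tested; DDX26B, a relative of INTS6, was under the limit, with 0.390 to 2.05 FPKM. With CPT 3 rose, 7 fell and 4 did not pass, with T4 2, 4 and 8, and with T5 3, 6 and 5. The shares of all tested genes that fell were 25.8%, 32.4% and 34.5%, and those that rose 17.9%, 14.5% and 18.2%. The medians of -0.72, -0.63 and -0.68 lay beside those of all tested genes given above. The endonuclease itself, INTS11 (listed as CPSF3L), had 13.5 FPKM in DMSO and 18.4 at 20 µM T5, and rose with T5 (0.48 ± 0.12, limma adjusted p = 0.0184) but did not pass with CPT (0.44 ± 0.16) or T4 (0.39 ± 0.15). INTS9, its inactive partner, fell with CPT (-1.51 ± 0.40, limma adjusted p = 0.0258) and T5 (-0.97 ± 0.32, limma adjusted p = 0.0428), from 6.79 FPKM to 1.51 and 2.91 at 20 µM. With T4 INTS9 was at -0.81 ± 0.33 and did not pass.

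Among the remaining arm and tail subunits, INTS15 (listed as C7orf26) fell with all compounds: -0.96 ± 0.24 with CPT, -1.96 ± 0.33 with T4 and -2.02 ± 0.27 with T5 (limma adjusted p = 0.0219, 0.00481 and 0.00222). INTS14 (listed as VWA9) fell with CPT (-1.37 ± 0.21, limma adjusted p = 0.0105), while the trends with T4 (-0.90) and T5 (-0.94) did not pass. INTS14 was nonetheless below its 21.2 FPKM in DMSO in every treated library. At 0.5, 5 and 20 µM it read 14.3, 7.71 and 10.9 FPKM with T4, and 11.5, 6.85 and 10.5 with T5. With CPT these values were 19.6, 9.19 and 8.81. INTS10 did not pass with any (-0.49, -0.26 and -0.26). INIP, the small SOSS subunit that sits on INTS3, fell with all (-1.26, -1.20 and -1.73). Of the single-stranded DNA binding subunits of SOSS, NABP1 fell with CPT (-1.18 ± 0.28, limma adjusted p = 0.0194) and was at -1.18 and -1.05 with T4 and T5 without passing. From 9.53 FPKM in DMSO, NABP1 read 13.5 and 4.84 at 0.5 and 20 µM CPT. At these doses it read 3.86 and 3.10 with T4, and 2.44 and 2.51 with T5. At matched doses NABP1 was lower than with CPT, by -1.08 ± 0.17 with T4 and -1.13 ± 0.21 with T5 (limma adjusted p = 0.00186 and 0.00374). The NABP2 trends were 0.26, 0.25 and 0.29 and did not pass. SHFM1, a small acidic protein found with several complexes, rose with all 3 (0.53, 0.56 and 0.47).

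The PP2A genes whose products join the phosphatase module did not move as a unit. PPP2R1A, the main scaffold subunit, rose with all compounds (0.81 ± 0.15, 0.60 ± 0.12 and 0.76 ± 0.11), from 76.2 FPKM in DMSO to 122.4, 107.0 and 121.7 at 20 µM. PPP2R1B, the other scaffold gene, fell with all (-1.27, -0.72 and -0.77). The catalytic PPP2CA fell with CPT (-1.35 ± 0.17) and T5 (-1.06 ± 0.28) and was at -0.97 ± 0.37 with T4 (limma adjusted p = 0.0677). PPP2CB fell with T4 (-0.55) and T5 (-0.59) and was at -0.47 with CPT (limma adjusted p = 0.0650). BRAT1, which binds the endonuclease pair, rose with CPT (0.52 ± 0.13) and was at -0.45 and -0.27 with T4 and T5 without passing. Its T4 and T5 values were hump-shaped. From 22.9 FPKM in DMSO they reached 31.1 and 35.1 at 2 µM and were 16.6 and 18.3 at 20 µM, beside 28.9 and 36.8 with CPT.

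Of 22 genes for the transcription and export of small nuclear RNAs, 9 fell and 0 rose with CPT, 10 fell and 1 rose with T4, and 12 fell and 0 rose with T5. Of all tested genes, 25.8% fell and 17.9% rose with CPT, 32.4% and 14.5% with T4, and 34.5% and 18.2% with T5, which is also the background for the pausing factors below. SNAPC1, of the factor that binds small nuclear RNA promoters, fell with CPT (-2.27 ± 0.48, from 153.2 FPKM in DMSO to 31.0 at 20 µM), T4 (-1.38 ± 0.27) and T5 (-1.80 ± 0.36). KIAA0947 (now ICE1, of the little elongation complex) fell with all compounds (-2.20, -1.73 and -2.13). ELL2, an elongation factor, also fell with each (-2.19 ± 0.34, -1.19 ± 0.31 and -1.10 ± 0.26). TBP, the TATA-binding protein, fell with CPT (-1.33 ± 0.26), T4 (-2.22 ± 0.30) and T5 (-2.47 ± 0.25). GTF2B, a general initiation factor, fell with T4 (-2.51 ± 0.77) and T5 (-2.81 ± 0.69) and was at -0.75 ± 0.41 with CPT without passing. A straight line describes its course poorly. From 10.9 FPKM in DMSO it was higher at 0.5 µM, with 20.5 (CPT), 18.2 (T4) and 21.2 (T5). At 20 µM it was at 8.89, 1.37 and 1.07 FPKM. Of 8 tested factors of promoter-proximal pausing, 1 rose and 2 fell with CPT and with T4, and 1 rose and 3 fell with T5. NELFA fell with each (-1.17, -1.80 and -1.85) and NELFCD rose with each (0.59, 0.41 and 0.50), although both encode subunits of the negative elongation factor. SUPT6H, a histone chaperone of elongation, fell with each (-0.72, -0.46 and -1.03). The small nuclear RNAs cannot be read here: of 16 such genes 6 are in the matrix, 4 of them are listed at 0 in every library, and RNU11 and RNU12 at 0 in 14 and 15 of 16.

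Changes differed with gene span over all tested genes. Of those, 10118 had an annotated span and were divided into 4 classes of equal size. With CPT the median change was 0.45 in the class up to 11.2 kb, which includes INTS5, and 0.01 in the next, up to 27.7 kb, which includes INTS12. It was -0.52 up to 65.0 kb and -0.67 above. INTS5 (1.28) was above and INTS12 (-1.10) below the median of its class. In the class of INTS5, 10.5% of genes fell and 37.6% rose with CPT. With T4 and T5 the medians of that class were 0.03 and 0.17, and 27.3% and 24.5% of its genes fell. INTS5 was at -2.35 and -2.16 there, and its place among all tested genes was percentile 2.89 with T4, 5.27 with T5 and 97.4 with CPT. INTS1 and ASUN, with spans of 34.1 and 33.1 kb, share a class and moved in opposite directions with every compound. The part of span in these results was not tested.

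**Figure D4:**
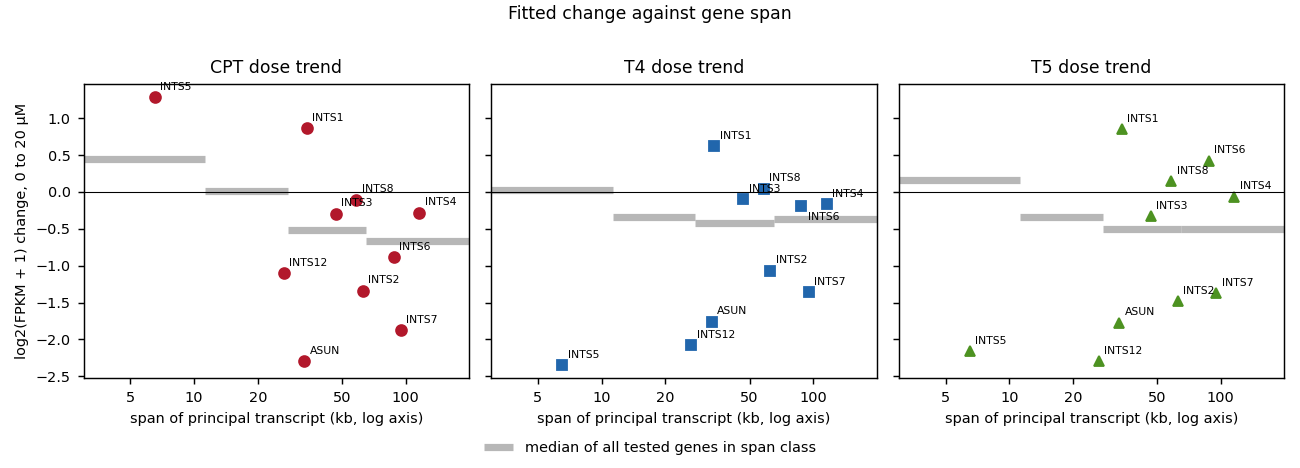
Fitted change from 0 to 20 µM on the log2(FPKM + 1) scale against the span of the principal transcript in kb (log axis), 1 panel per compound and 1 point per subunit, with grey bars for the median of all tested genes in each class of span (outermost bars clipped at the axis limits). INTS5, the shortest at 6.5 kb, is above the grey bar with CPT and below it with T4 and T5.

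For the subunits with the 3 largest changes with T5, the genes with the most similar profile were found by the mean absolute difference of the log2 ratio to DMSO over the 15 treated libraries. Nearest to INTS5 were TMEM115 (0.135), CSRNP2 (0.159) and TRMT5 (0.163), where the median gene was 1.31 away. TMEM115 was at 1.24 with CPT and at -2.40 and -2.39 with T4 and T5 at 20 µM. Nearest to INTS12 were SUPV3L1 (0.0949), FAM104A (0.101) and RNF4 (0.105), with a median gene 0.825 away. Nearest to ASUN were VPRBP (0.0854), ELP3 (0.0888) and SETD2 (0.0920), with a median gene 1.06 away. These libraries share their DMSO reference, and the likeness is a description over 15 points.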

How the data were processed

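The authors deposited 1 matrix of FPKM values, with symbols and no coordinates or counts, per the file headers. The submitters' processing notes list GSNAP and Cufflinks and the builds hg19 and GRCh37, without roles. For versions, annotation and strand handling nothing is given in the sources used. Left out were 2 inner header lines, 1 incomplete line and 220 repeats with identical values.

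Genes with a mean of at least 1 FPKM (10600 of 25270) were tested with limma 3.58.1 in R 4.3.3, with a variance trend, on log2(FPKM + 1), 2-sided, with Benjamini-Hochberg adjustment over all of them and a threshold of 0.05. Dose entered as log2(1 + dose/0.5 µM). Trends used DMSO and 5 libraries of a compound (6 libraries). Comparisons of compounds used 10 libraries without DMSO, with dose as a block or, for slopes, an intercept for each compound. Whether each library is a separate culture is not labelled, and p-values then describe only the scatter among these libraries, which may be technical. The code was tested on simulated data for the T5 dose trend only. Absolute depth is unknown.

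The members and lists were chosen with earlier results of these data known. Named genes were all members, other Integrator genes and their copies or antisense genes, up to 3 genes of each pathway list per trend by size of change, and the 3 genes nearest to each of the 3 members with the largest T5 change. GENCODE 29 (GRCh38) gave spans and RefSeq (GRCh38.p14) promoters, matched by symbol or synonym. Alternatives were a pseudocount of 0.1, no filter, median centring, quantile normalization, a linear dose scale, treated libraries only, and leaving out each dose.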

Additional observations from a re-analysis of the deposited data

Results flagged for a closer look

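The change with dose differed between compounds for INTS5 and INTS12, by a test of the slope difference itself. The INTS5 slope from 0.5 to 20 µM differed by -2.60 ± 0.31 between T4 and CPT (limma adjusted p = 0.00338) and by -2.35 ± 0.37 between T5 and CPT (limma adjusted p = 0.00841). The INTS12 slope differed by -0.98 ± 0.25 between T5 and CPT (limma adjusted p = 0.0455), a call lost in every fit that left out a dose, and by -0.90 between T4 and CPT, which did not pass (limma adjusted p = 0.109). Without the 10 µM dose the INTS5 differences were -2.57 and -2.38 and did not pass (limma adjusted p = 0.0620 and 0.0841). In these fits limma called 0 of all tested genes between T4 and CPT, and 22 lower and 0 higher slopes between T5 and CPT. INTS5 was lower at each higher dose of T4 and T5, and higher at each CPT dose up to 5 µM. INTS12 was below DMSO from 5 µM on with all 3 compounds, and lowest with T5.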

How the results depend on the processing

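No paired analysis was possible because each condition has 1 library and the labels give no replicate numbers to pair. Libraries of different compounds were matched by dose instead, with dose as a block in the main fits. Of 630 values of single subunits under an alternative, 487 kept direction and call, 83 lost a call, 11 gained one and 49 changed sign. Of 240 counts of subunits, 177 stayed within 1.5 times and 63 moved. The cause of these changes was not tested.

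With no filter, CPT had 1 falling subunit, T5 against CPT 1 lower slope, and T5 against T4 0 higher. Of the 20739 genes in that fit, the same counts were 2454, 596 and 397. With median centring, CPT had 2 falling, T5 2 rising, T5 against CPT 7 higher and 1 lower slope, and T5 against T4 1 lower and 2 higher. Of the 10600 tested genes, centring gave 1643 falling with CPT and 4388 rising with T5. For T5 against CPT it gave 3986 higher and 451 lower slopes, and for T5 against T4 1166 lower and 2622 higher. Quantile normalization gave 2 falling with CPT, 1 lower slope for T5 against CPT and 1 lower for T5 against T4. Over all tested genes these counts were 1910, 601 and 1351. On a linear dose scale CPT had 0 falling and 0 rising, T4 2 falling and 0 rising, T5 1 falling and 0 rising, and both slope comparisons with CPT 0. Over all tested genes this scale gave 0 and 0 with CPT, 1328 and 99 with T4, and 545 and 23 with T5. The slope comparisons with CPT called 44 lower and 1 higher (T4) and 80 lower and 3 higher (T5). Among treated libraries only, CPT had 3 falling and T5 2 rising, beside 2381 falling with CPT and 2622 rising with T5 over all tested genes. In single libraries with median centring, 2 subunits were higher at 5, 10 and 20 µM CPT. With T4, 0 were lower at 2 and 5 µM, 1 at 10 and 2 at 20 µM, and 1 was higher at 5, 10 and 20 µM. With T5, 0 were lower at 0.5 and 2 µM, 1 at 5, 3 at 10 and 2 at 20 µM, and 2, 2 and 1 were higher at 5, 10 and 20 µM. A pseudocount of 0.1 gave 1 lower at 0.5 µM and 5 at 5 µM T4. Shares of all tested genes were not counted for single libraries under these alternatives.

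Leaving out each dose gave 0 to 5 falling and 0 to 2 rising with CPT, 1 to 3 lower between T4 and CPT, 0 to 1 lower slopes in both comparisons with CPT, and 1 to 2 lower and 0 to 1 higher between T5 and T4. Over all tested genes, leaving out a dose gave 0 to 2920 falling and 1 to 2005 rising with CPT. It gave 3118 to 3828 lower between T4 and CPT, and 0 to 1277 (T4) and 22 to 960 (T5) lower slopes against CPT. Between T5 and T4 it gave 1647 to 2674 lower and 294 to 756 higher. It gave ranges that cross 0 for INTS8 with T4 (-0.26 to 0.082) and T5 (-0.10 to 0.16), for INTS8 (-0.036 to 0.045), INTS4 (-0.043 to 0.017) and INTS5 (-0.025 to 0.087) between T5 and T4, for INTS6 between T4 and CPT (-0.0013 to 0.23) and for INTS2 between T5 and CPT (-0.081 to 0.014).

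Trends that changed sign were not called in the main analysis. With median centring these were INTS3 at 0.15, INTS4 at 0.17 and INTS8 at 0.35 with CPT, INTS3 at 0.55, INTS4 at 0.48 and INTS6 at 0.46 with T4, and INTS3 at 0.34 and INTS4 at 0.61 with T5. With quantile normalization they were 0.20, 0.10 and 0.36 for INTS3, INTS4 and INTS8 with CPT, 0.59, 0.29 and 0.53 for INTS3, INTS4 and INTS6 with T4, and 0.38 and 0.40 for INTS3 and INTS4 with T5. The linear scale gave INTS3 0.060 and INTS8 0.13 with CPT, INTS3 0.32 and INTS4 0.0030 with T4, and INTS3 0.063 and INTS4 0.090 with T5. Treated libraries only gave INTS3 0.84, INTS4 0.52 and INTS8 0.97 with CPT, INTS3 0.84 and INTS4 0.010 with T4, and INTS3 0.61 and INTS4 0.21 with T5. Between compounds, centring turned INTS1 (0.16) and INTS2 (0.17) of T5 against CPT and INTS4 (0.080) and INTS8 (0.10) of T5 against T4; quantile normalization turned INTS2 (0.18), INTS4 (0.055) and INTS8 (0.10) likewise. The values of INTS5 near 0.4 FPKM are the lowest of the members, and their precision cannot be stated without counts.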
